A study of Mus musculus with 12 samples.

Results

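Peaks of at least 1500 bp were taken from a table of m6A immunoprecipitation counts in mouse liver, and were selected on width alone, as end minus start of 1500 or more. The rule kept 483 of 37118 peaks, which is 1.301% of the peaks and 7.81% of the bases that peaks cover. They lay in 446 genes by the symbols in the table, and 10 carried no symbol. The libraries came from livers of wild-type (WT) C57BL/6 mice that the labels call male and 6 to 8 weeks old when housed. The control group was gavaged with 0 mg/kg/day CdCl2 and the cadmium group with 20 mg/kg/day CdCl2, and both were sampled at day 90. Each group had 3 immunoprecipitated (IP) samples, numbered as replicates and batches 1 to 3. Per the labels, 6 mice made up each group, and samples are not tied to single mice there, so p-values measure the spread between these samples. The 6 input libraries of the study were not used here, and a count in a peak therefore moves with the amount of RNA, with the methylated share, or with both.

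N6-methyladenosine (m6A) is a methyl mark placed on adenosines of messenger RNA by a methyltransferase complex, mostly within a short motif whose core is GGAC. Reader proteins of the YTH family bind the mark and steer the decay, translation or processing of the RNA. The mark is known to gather in long internal exons and near stop codons. In liver, m6A has been tied to lipid metabolism and to transcripts that cycle over the day.

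The samples held 40174736 to 52338612 counts in peaks, and the 2 largest peaks, both narrow, took 4.95% to 19.7% of them. The 7 hepatocyte markers examined all had peaks, which summed to 30600 to 32330 CPM (counts scaled to a common library size with TMM factors) in control and 26400 to 30420 CPM in cadmium samples. Each cadmium sample thus lay below each control sample, though 0 of these 53 peaks passed the test described further on. Apob is among these markers, and its widest peak had a mean of 10340 CPM. Xist, the RNA of the inactive X chromosome, had 14 peaks with a summed level of 624.7 to 1046 CPM in all 6 samples, while the table as used here lists no peak for the Y-linked genes Kdm5d, Uty, Ddx3y and Eif2s3y. These values go against the label "male" in every sample of both groups.

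Sequence was at hand for few wide peaks, because no genome was used: RefSeq start windows of 300 bases (build GRCm38.p6) exist for 351 of the wide-peak genes, 35 wide peaks overlap such a window and 10 hold a whole one. Another 3 wide peaks overlap a microRNA hairpin. The wide peak of Klhdc7a that was higher in cadmium samples (described further on) ends inside the Mir2139 hairpin at chr4:139967526-139967620, minus strand. The hairpin is shown because its mature part lies whole inside that peak; capitals mark the 55 of 95 bases that the peak holds, reading the deposited start as counted from 0. In the mature sequence, capitals mark the seed.

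Mir2139 hairpin: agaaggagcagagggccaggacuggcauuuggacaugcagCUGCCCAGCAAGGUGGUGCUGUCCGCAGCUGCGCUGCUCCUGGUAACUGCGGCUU
mmu-miR-2139: aGCUGCGCugcuccugguaacugc

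The GGAC core occurs in the hairpin at bases 19 and 31 and so only outside the peak. Among called wide peaks, that of Pelo, a factor that rescues stalled ribosomes, covered its gene's whole start window. The 250 bases before its annotated start, chr13:115090159-115090408 on the minus strand, are printed with the GGAC core in capitals.

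Pelo upstream: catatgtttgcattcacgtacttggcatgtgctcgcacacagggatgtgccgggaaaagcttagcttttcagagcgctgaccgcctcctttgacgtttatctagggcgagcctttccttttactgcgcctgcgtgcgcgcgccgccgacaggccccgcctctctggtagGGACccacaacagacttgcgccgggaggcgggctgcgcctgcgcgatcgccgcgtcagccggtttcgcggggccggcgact

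This stretch holds 1 GGAC on the gene's strand, at base 170, and 57.97% of all 32851 upstream windows of that length hold at least 1. The peak reached 1218 bp beyond the annotated start of Pelo and also carries the symbols Gm10734, Itga1 and Gm49395, whose reads cannot be told apart from those of Pelo here. Ifit2 and Ifit3, interferon-induced neighbours on chromosome 19 whose wide peaks both rose, were searched for GAAANNGAA on both strands, a letter pattern of the interferon response element. The window of Ifit3, chr19:34583279-34583528 on the plus strand, holds 3 matches (capitals, all on the opposite strand) at bases 96, 130 and 149.

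Ifit3 upstream: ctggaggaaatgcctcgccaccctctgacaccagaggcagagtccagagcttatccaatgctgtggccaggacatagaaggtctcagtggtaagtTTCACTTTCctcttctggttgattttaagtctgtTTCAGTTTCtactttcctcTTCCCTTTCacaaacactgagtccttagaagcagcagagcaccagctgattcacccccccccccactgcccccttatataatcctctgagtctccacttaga

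The pattern stood in 7.13% of all upstream windows, in 5.13% of those of genes with a wide peak, and in 1 of 23 windows of genes whose wide peak was called higher, that of Ifit3. Both windows of Ifit2 listed in RefSeq held none. CACGTG, the E-box that clock factors bind, stood in 6.02% of all windows, in 7.91% of those of genes with a wide peak, in 2 of 18 windows of genes whose wide peak was called lower (Il6ra and Rnf145) and in 1 of 23 of those called higher (Wdr81).

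Wide peaks had a median width of 1824 bp, with 167 of at least 2000 bp and 24 of at least 3000 bp. The widest was the 7462 bp peak of Apob (chr12:8005740-8013202), which encodes the structural protein of very-low-density and low-density lipoprotein. It was followed by Plec (6122 bp), a linker of the cytoskeleton, Ahnak (5359 bp), a very large scaffold protein, Spen (4685 bp), a repressor that binds Xist RNA, and Mn1 (4588 bp), a transcriptional coregulator. The next widest were those of Chdh (3872 bp, shared with Cacna1d), which oxidises choline, Irs2 (3845 bp), an adaptor of the insulin receptor, Ahdc1 (3827 bp), 9930021J03Rik (3649 bp) and Helz2 (3633 bp). Just inside the threshold lay Gsta3 (1500 bp), Ado (1502 bp) and a peak with no symbol on chromosome 7 (1507 bp), and just outside it Irgm2 and Acnat1 (1499 bp each) and Zbtb12 (1498 bp). Of the 483 peaks, 464 belonged to protein-coding genes and 87 carried more than 1 symbol.

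Genes with 2 wide peaks numbered 21, and 3 genes (Ahnak, Zfhx3 and Spen) had 3. In 20 of these 24 genes the wide peaks differed by less than 0.25 in log2 change: those of Ahnak stood at 0.50, 0.50 and 0.48, and those of Zfhx3 at -0.04, -0.06 and -0.06. The wide peaks of Irs1, the other main insulin receptor adaptor, stood at -0.24 and -0.23. The largest spread was that of Fam120b, a coactivator of PPARG, with -0.15 at 1 wide peak and 1.45 at the other.

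RefSeq gene ends with a strand were found for 366 wide peaks. A wide peak came within 3000 bp of the 3′ end of its gene in 170 of these (46.45%), against 19.12% of the narrower peaks of the same genes and 37.81% of all tested peaks with such an end. Wide peaks that reached the end itself, to within 100 bp, were 8.74%, against 5.46% of narrower peaks of the same genes and 11.09% of all tested peaks. The 5′ end was reached by 7.92% of wide peaks and 4.46% of those narrower peaks. These shares are a description, since a wider peak is more likely to touch any given point. They also count peaks and not genes, so a gene with many narrower peaks weighs more. The median gene length was 66290 bp over the narrower peaks and 32140 bp over the wide ones. Wide peaks spanned 50% or more of the gene in 27 cases, and that of Cyp8b1, an intronless gene, covered 96.8% of it. Exons and untranslated regions were not analysed here.

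The whole level of a wide peak was several times that of other peaks, and its level per length was closer to theirs. The median was 65.97 CPM, against 7.50 CPM over all 37088 tested peaks. Per kilobase the medians were 33.74 CPM for wide peaks, 32.51 for the 1921 narrower peaks of the same genes and 29.23 for all tested peaks. Within a gene, the wide peak had 1.19 times the level per kb of the median narrower peak (median over 417 wide peaks, quartiles 0.88 and 1.5). In single samples this median ratio ran from 1.07 (control replicate 1) to 1.33 (control replicate 2), and the cadmium samples gave 1.16, 1.21 and 1.18, inside the range of the control samples. It was 1.08 when narrower peaks below the median level of all peaks were left out. A wide peak stood above the median of its gene's narrower peaks in 273 of 417 cases and above every one of them in 145. Wide peaks held a median of 67.88% of all peak counts of their gene. These levels come from the libraries in which the peaks were found, so they are given without a test.

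**Figure D1:**
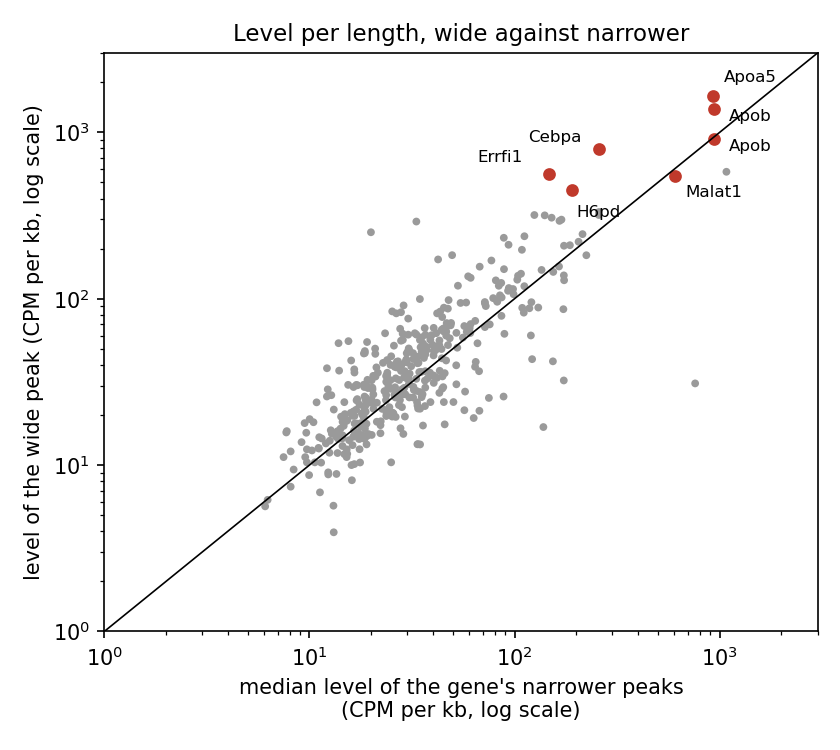
Level of each of the 417 wide peaks that have a narrower peak in the same gene (vertical axis, CPM per kb, log scale) against the median level of those narrower peaks (horizontal axis, CPM per kb, log scale), mean of 6 samples. The line marks equal levels; 273 points lie above it, and 7 peaks of 6 genes with a high level per kb are drawn in red with their gene.

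The highest level per kb was that of Apoa5, an apolipoprotein that governs plasma triglyceride. Its peak (chr9:46269713-46271411, shared with Gm47544) had 2971, 2969 and 2730 CPM in control replicates 1 to 3 and 2393, 2937 and 2783 CPM in cadmium replicates 1 to 3. The groups overlapped, and the log2 change was -0.10 (SE 0.13, adjusted p = 0.719). The widest peak of Apob had 10190, 12660 and 9763 CPM in control and 10590, 9046 and 9802 CPM in cadmium samples, again with overlap (log2 change -0.15, SE 0.14, adjusted p = 0.584). It alone gave 14.3% to 17.8% of the counts in wide peaks of a sample. Cebpa, a transcription factor that maintains hepatocyte identity, had 1740, 1508 and 1703 CPM in control and 1496, 1791 and 1794 CPM in cadmium samples. Its wide peak had 3.09 times the level per kb of the gene's only narrower peak. The selenium enzyme Sephs2 (790 CPM per kb), the nuclear RNA Malat1 (545), H6pd of the endoplasmic reticulum (450.6) and a peak with no symbol on chromosome 19 (497) were also among the 10 highest, together with a shorter wide peak of Apob (917) and Errfi1 (560). None of those named was called in the fit without a block. Errfi1, a feedback inhibitor of the EGF receptor, had the largest difference among them, at 811.4, 1610 and 1277 CPM in control and 286.1, 843.5 and 664.1 CPM in cadmium samples. The cadmium sample was the lower in each of the 3 same-numbered pairs, though cadmium replicate 2 lay above control replicate 1. The log2 change was -1.04 (SE 0.35, adjusted p = 0.107), and with the replicate number as a block Errfi1 was called (log2 change -1.13, adjusted p = 0.00519).

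Wide peaks took 7.42% ± 1.48 of the counts in control and 7.22% ± 0.673 in cadmium samples (SD, n = 3 each). The shares were 6.25%, 9.08% and 6.93% in control replicates 1 to 3 and 7.24%, 7.89% and 6.54% in cadmium replicates 1 to 3. The groups overlapped, with an exact two-sided permutation p of 0.9, where 0.1 is the smallest that 3 against 3 samples allow. The difference changed sign when control replicate 2 was left out (0.631 percentage points higher in cadmium samples) or cadmium replicate 3 (0.139). With the 2 largest peaks out of the total the shares were 8.42% ± 1.03 and 8.26% ± 0.304 (SD, n = 3, exact permutation p = 0.9).

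**Figure D2:**
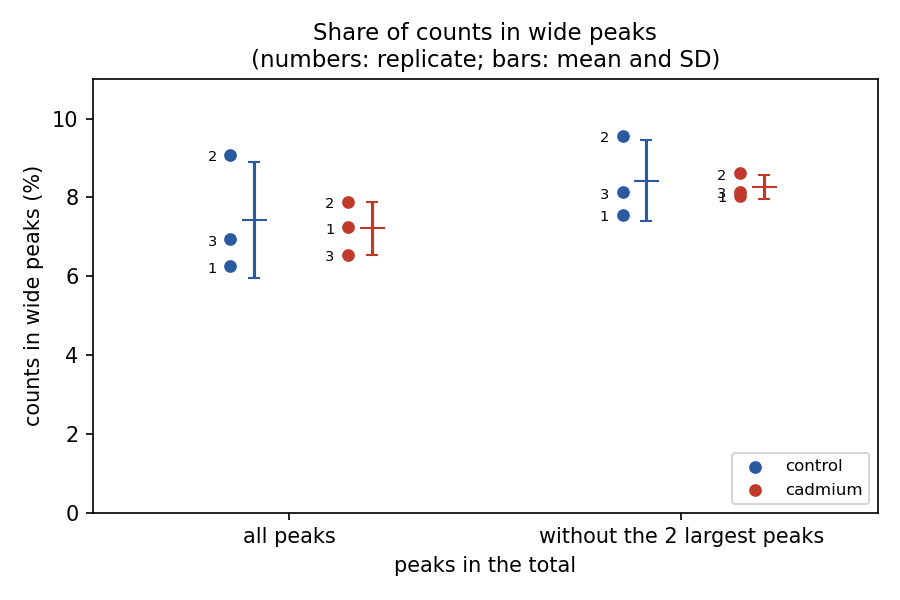
Percentage of a sample's counts that fall in wide peaks (vertical axis), for 3 control and 3 cadmium samples, with all peaks in the total (left) and without the 2 largest peaks (right); digits name the replicate and bars give mean and SD. The control samples span 6.25% to 9.08% and enclose all 3 cadmium samples.

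Cadmium and control samples differed at 48 of the 483 wide peaks (9.94%) by edgeR's quasi-likelihood test at a Benjamini-Hochberg adjusted p below 0.05 over all peaks, against 6.27% of all tested peaks. Of these, 30 were higher in cadmium samples and 18 lower, against 3.55% and 2.72% of all tested peaks. All 483 passed the filter on low counts. The groups did not overlap at 132 wide peaks (27.33%), against 26.8% of all tested peaks, and at all 48 called ones. The median absolute log2 change was 0.23 for wide peaks and 0.23 for all tested peaks, and the median signed change was -0.0079 and -0.0031. The percentage called rose with width while the size of the difference did not: it was 4.84% below 200 bp, 6.57% from 200 to under 500 bp, 8.95% from 500 to under 1000 bp, 8.64% from 1000 to under 1500 bp, 9.81% from 1500 to under 2000 bp and 10.18% from 2000 bp, where the median level went from 4.17 to 85.2 CPM. The counts behind a peak thus moved with the percentage called, and their part was not tested. The narrower peaks of the same genes were called at 117 of 1921 (6.09%), 44 higher and 73 lower.

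**Figure D3:**
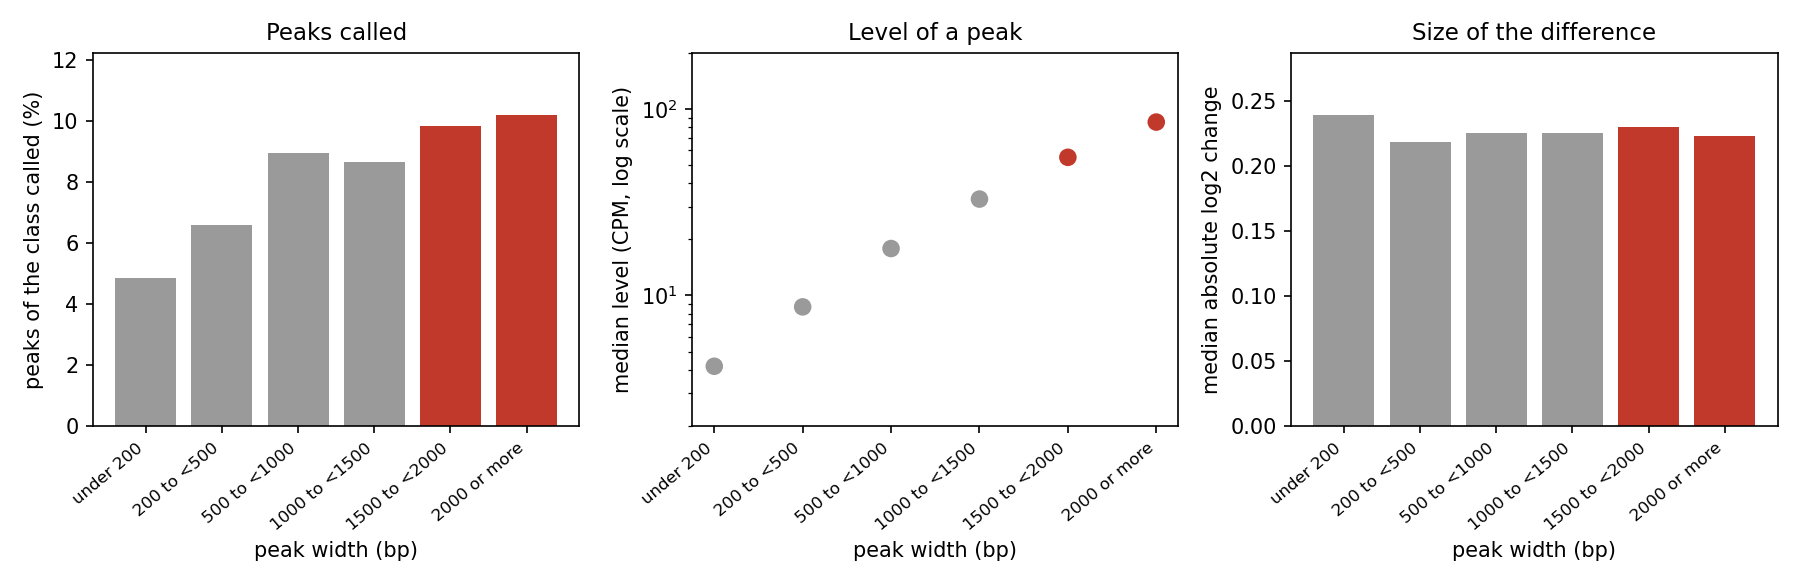
Percentage of peaks called by edgeR, median level in CPM (log scale) and median absolute log2 change for 6 classes of peak width in bp; wide peaks are red. The percentage called goes from 4.84 to 10.18 and the median level from 4.17 to 85.2 CPM across the classes, while the median absolute log2 change stays between 0.22 and 0.24.

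The count moved with single samples, as did that over all peaks. It was 12 without cadmium replicate 3 (1.46% of all peaks called), 19 without control replicate 3 (2.91%) and 31 without cadmium replicate 2 (4.47%). The lean to higher counts turned without control replicate 1 (19 higher, 27 lower) and without cadmium replicate 3 (5 higher, 7 lower). With the replicate number as a block it was 69, against 8.48% of all peaks, and with DESeq2's Wald test it was 73, against 9.92% of all peaks, and both of these fits kept all 48. The 9 calls that stood whichever sample was left out were those of Tsku, Per2, Zfp970, Acot3 and Klf13 (lower) and Ifi47, Ifit2, Gm10319 and Fam43a (higher).

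The largest fall was at Tsku, which encodes tsukushi, a secreted liver protein. Its only peak (chr7:98350677-98353075, 2398 bp, ending 9 bp from the 3′ end of the gene) had 396.8, 1004 and 672.7 CPM in control and 17.45, 42.63 and 10.49 CPM in cadmium samples. Every cadmium sample lay far below every control sample, a 29.3-fold fall (log2 change -4.87, SE 0.52, adjusted p = 0.0012). Per2, a repressor of the circadian clock, had 54.92, 97.36 and 73.96 CPM in control and 16.36, 22.16 and 15.1 CPM in cadmium samples at its wide peak (chr1:91416394-91418073). The fall was 4.22-fold (log2 change -2.08, SE 0.23, adjusted p = 0.00129). Of the 9 narrower peaks of Per2, 7 were called lower, with log2 changes from -2.21 to -1.02, and the other 2 stood at 0.18 and 0.34.

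Zfp970, a zinc finger gene on chromosome 2 (177474832 to 177476842), had 84.67, 78.48 and 69.16 CPM in control and 34.19, 22.28 and 16.52 CPM in cadmium samples. Its log2 change was -1.67 (SE 0.24, adjusted p = 0.00399), and its 3 narrower peaks were also called lower. Similar zinc finger genes may share reads. Acot3, which releases fatty acids from coenzyme A in peroxisomes, had 443.2, 727.9 and 489.0 CPM in control and 148.8, 215.5 and 181.3 CPM in cadmium samples (chr12:84058401-84060072, shared with Gm49366). The groups stood well apart, at a log2 change of -1.61 (SE 0.21, adjusted p = 0.00268), and both narrower peaks of the gene were called lower, at -1.43 and -1.39.

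Chd9, a chromatin remodeller, had 792.5, 912.9 and 1015 CPM in control and 485.7, 349.3 and 562.4 CPM in cadmium samples. Its log2 change was -0.96 (SE 0.18, adjusted p = 0.0148), and without control replicate 3 it was not called (adjusted p = 0.0617). The wide peak held 69.2% of the gene's peak counts, and 4 of 20 narrower peaks were called, all lower. Klf13, a transcription factor, had 271.0, 286.4 and 240.5 CPM in control and 136.3, 151.5 and 142.8 CPM in cadmium samples (log2 change -0.89, SE 0.14, adjusted p = 0.00544), and all 5 narrower peaks fell with it. Among the other falls were those of Slc16a5 (-1.11), a monocarboxylate transporter, Rnf145 (-0.99), a ubiquitin ligase of sterol control, Ppl (-0.93), Arid5b (-0.91), a chromatin regulator, Gsta3 (-0.74), a glutathione transferase, and Ppp1r15b (-0.73), a subunit that directs dephosphorylation of eIF2 alpha. A peak that shares the symbols 4930579F01Rik, 0610031O16Rik and Adh7 (-0.80), Pelo (-0.69), and a peak with no symbol on chromosome 4 (133098782 to 133100648, log2 change -0.95, with a control mean of 697.4 ± 92.5 CPM and a cadmium mean of 361.5 ± 84.7 CPM, SD, n = 3) also fell. The chromosome 4 peak had 606.5, 694.5 and 791.3 CPM in control and 377.7, 269.9 and 436.9 CPM in cadmium samples. These values follow those of the wide peak of Chd9 sample by sample, and whether both peaks count the same reads was not tested. Like that of Chd9, the chromosome 4 peak needed control replicate 3 for its call. Rnf145 needed cadmium replicate 3, and Arid5b cadmium replicates 1 and 3. Slc16a5 and Pelo were called in 1 of the 6 fits that left out a sample, and Ppl, Gsta3, Ppp1r15b and the Adh7 peak in 2. The peaks of Gsta3 split by position on chromosome 1. Its narrower peaks from 21240631 to 21245114, beside the wide one, were called lower, at -0.83 to -0.87. Those from 21249817 to 21265204 stood at -0.31 to -0.45 and were not called. Their control means were 172.5 to 359.2 CPM, against 58.07 CPM at the wide peak.

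The largest rise was at Cyp8b1, the sterol 12-alpha-hydroxylase that makes cholic acid. Its only peak (chr9:121914371-121916258) had 89.62, 235.0 and 309.0 CPM in control and 632.6, 724.1 and 649.8 CPM in cadmium samples. The cadmium samples lay close together and the control samples spread more widely, for a log2 change of 1.66 (SE 0.34, adjusted p = 0.0197). Without cadmium replicate 3 the adjusted p was 0.0643. Ifi47, an interferon-induced GTPase, had 30.96, 34.68 and 27.55 CPM in control and 58.23, 87.56 and 78.46 CPM in cadmium samples (chr11:49095357-49096888, shared with Olfr56). The change was 1.27 (log2, SE 0.18, adjusted p = 0.00392), and its 1 narrower peak was called higher too.

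Ifit2, an interferon-induced RNA-binding protein, had 12.67, 17.47 and 8.95 CPM in control and 29.08, 32.1 and 31.3 CPM in cadmium samples (log2 change 1.24, SE 0.22, adjusted p = 0.0101). Ifit3, its neighbour, had 38.6, 47.75 and 31.67 CPM in control and 65.23, 88.82 and 74.47 CPM in cadmium samples (log2 change 0.95, SE 0.19, adjusted p = 0.0159). In both genes the wide peak was the only peak, and neither pair of groups overlapped. Without cadmium replicate 3 or control replicate 3 Ifit3 was not called (adjusted p up to 0.0698). Gm10319 rose from 25.93, 28.44 and 23.06 CPM to 66.58, 45.58 and 54.02 CPM (log2 change 1.101, SE 0.17, adjusted p = 0.00656), and all 3 narrower peaks were called higher.

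Both wide peaks of Klhdc7a, a kelch domain gene, were called higher. The wider (chr4:139964547-139967580, the peak that holds mature miR-2139) had 83.86, 83.38 and 85.56 CPM in control and 129.5, 195.7 and 181.8 CPM in cadmium samples (log2 change 1.00, SE 0.17, adjusted p = 0.00838). The control samples differed by little, and cadmium replicate 1 was the lowest of its group. Without cadmium replicate 3 the adjusted p was 0.052. The narrower wide peak stood at 0.85 (adjusted p = 0.0183). Mn1 rose by 0.87 (SE 0.16, adjusted p = 0.0116), from 109.5, 128.4 and 111.6 CPM to 223.9, 174.9 and 239.5 CPM, and was not called without cadmium replicate 3 or control replicate 3 (adjusted p up to 0.0748).

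The other rises of the 15 largest were at Fam120b (1.45), Tbc1d30 (1.33), a Rab GTPase activator, Tlr12 (1.08), a Toll-like receptor, Tacc2 (0.98, shared with Fgfr2), Cd93 (0.91), a receptor of endothelial cells, Rap2b (0.90), a small GTPase, Tnfaip8l1 (0.90) and Shank2 (0.86), a scaffold protein. Fam120b was called in 3, and Tbc1d30, Tlr12, Tnfaip8l1 and Shank2 in 2, of the 6 fits that left out a sample, and cadmium replicate 3 was needed for each of the 8 peaks in this group except that of Cd93, which needed control replicate 3. Outside the naming rule, Fam43a, Ifnar2, Dclre1a, the shorter Klhdc7a peak, Emilin1 (0.67), a matrix protein, and Mpeg1 (0.80), a protein of macrophages, are named after their values were seen. Mpeg1 was called in 1 and Emilin1 in 2 of the fits that left out a sample, and Emilin1 missed the threshold with DESeq2 size factors in edgeR (adjusted p = 0.0507). Beside the rises, the markers of stellate cells summed to 103.1 to 135.1 CPM in control and 164.2 to 199.0 CPM in cadmium samples, with 4 of 12 marker peaks called higher. Endothelial markers summed to 107.7 to 154.6 and 106.3 to 162.4 CPM, with 1 of 15 peaks called higher. Kupffer cell markers, of which 2 of 5 had a peak, summed to 75.16 to 99.1 and 83.22 to 121.1 CPM, with 0 of 4 called. The summed hepatocyte markers were lower in each cadmium sample, as given above, with 0 of 53 peaks called. More cells of a type and more RNA per cell cannot be told apart in whole tissue, and the part of these cells in the rises was not tested.

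**Figure D4:**
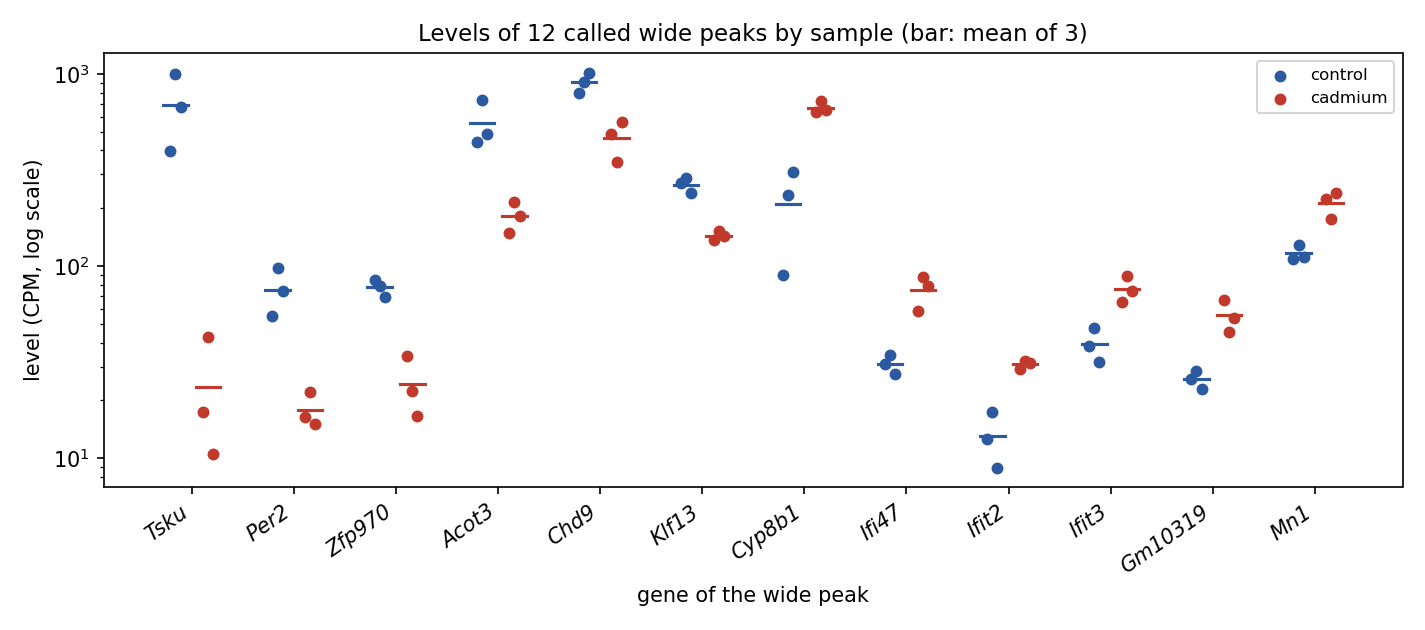
Level of 12 called wide peaks in CPM (log scale) in each of 3 control (blue) and 3 cadmium (red) samples; bars give the group means. The 12 were picked from the 48 called wide peaks, and the groups do not overlap at any of these 48, nor at 26.8% of all tested peaks. Of the 12, Tsku has the widest gap, from 691.1 ± 303.8 to 23.52 ± 16.9 CPM (SD, n = 3).

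Wide peaks that missed the threshold include some with large but scattered differences. Sult2a5, a sulfotransferase, had 0.489, 23.42 and 9.22 CPM in control and 2.22, 1.65 and 1.15 CPM in cadmium samples (log2 change -2.73, adjusted p = 0.0961), so that control replicate 1 lay below the cadmium samples. Jun, a subunit of the AP-1 transcription factor, had 45.12, 308.8 and 225.8 CPM in control and 71.0, 47.28 and 60.22 CPM in cadmium samples (log2 change -1.70, adjusted p = 0.0744), with control replicate 1 again below the cadmium samples. Both were chosen after their values were seen.

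The log2 change of a wide peak was set against those of the narrower peaks of its gene. In 391 genes with both kinds, the log2 change of the wide peak minus the median of the narrower ones had a median of -0.01 (quartiles -0.10 and 0.08). It was within 0.25 in 338 genes and reached 1 in 2, Sult2a5 and Dclre1a, and the sign was shared in 338 genes. Calls leaned to higher counts at wide peaks (30 higher, 18 lower) and to lower counts at these narrower peaks (44 higher, 73 lower), a difference that was not tested. A gene with several peaks counts several times here. Of the 117 called narrower peaks, 87 lay in genes with a called wide peak. Over the 391 genes the values correlated at Pearson's r of 0.899, as a description, since the peaks of a gene share its RNA and its libraries. Of the 48 called wide peaks, 41 had a narrower peak in the gene. In all 41 the median of the narrower peaks had the same sign, in 29 a narrower peak was called in the same direction, and in 0 in the opposite direction. In 18 genes a narrower peak was called and no wide one.

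**Figure D5:**
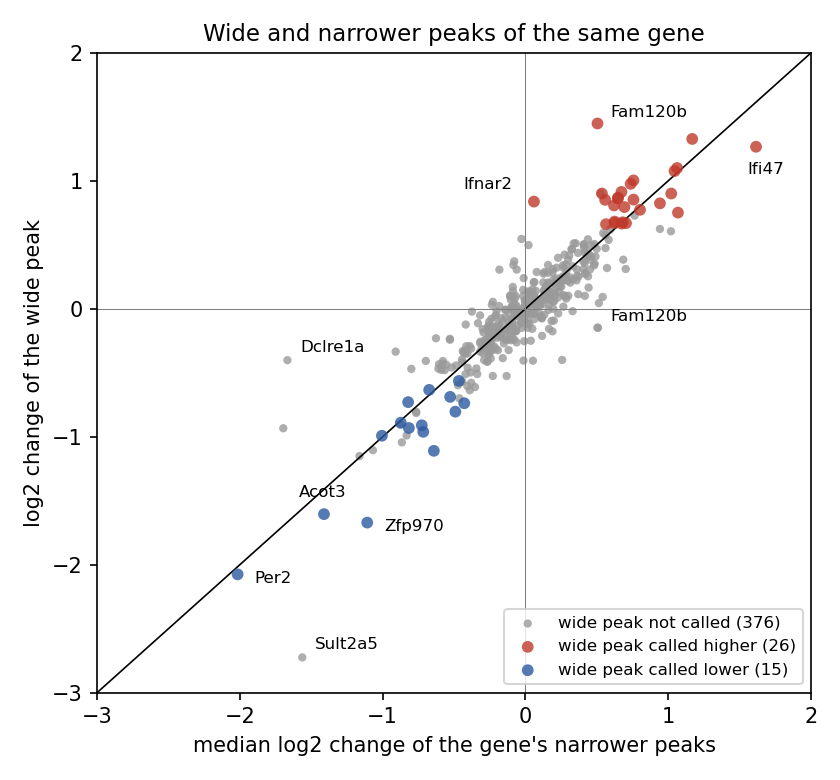
Log2 change (cadmium against control) of 417 wide peaks (vertical axis) against the median log2 change of the narrower peaks of the same gene (horizontal axis); the line marks equal change, and red and blue mark wide peaks called higher (26) and lower (15). Most points lie along the line, and Fam120b, Ifnar2, Dclre1a and Sult2a5 stand away from it.

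A test of each peak against the other peaks of its gene called 0 of 419 wide peaks. It was edgeR's diffSpliceDGE, which called 0.0848% of all peaks tested this way. At an unadjusted p below 0.05 there were 2 wide peaks, and the lowest adjusted p was 0.688. Added after the data were seen, limma on the log2 ratio of a peak to the summed other peaks of its gene called 0 wide peaks and 0.0283% of all, with 24 wide peaks at an unadjusted p below 0.05 and a lowest adjusted p of 0.119, at Dclre1a, a DNA repair nuclease. limma-voom's diffSplice called 0 wide peaks, with 13 below an unadjusted p of 0.05. A p above the threshold does not show that a wide peak and its gene moved alike. At Fam120b the wide peak on chromosome 17 from 15427664 to 15429877 had 34.22, 22.99 and 62.91 CPM in control and 128.4, 83.23 and 116.3 CPM in cadmium samples (log2 change 1.45, SE 0.32, adjusted p = 0.0245). The other wide peak of the gene (15401759 to 15403700) had 34.32, 45.91 and 39.48 CPM in control and 35.63, 36.79 and 35.69 CPM in cadmium samples. The first set did not overlap and the second did. The 2 narrower peaks beside the changed one stood at 1.13 and 1.15 and the 2 near the other at -0.12 and -0.36, so the peaks of this gene split by position. The changed peak also carries the symbol Gm49668, and neither passed the ratio test (adjusted p = 0.229 and 0.248). Ifnar2, a subunit of the type I interferon receptor, stood at 0.84 at its wide peak (adjusted p = 0.0195) and at 0.12 and 0.00 at its 2 narrower ones (ratio test adjusted p = 0.187). That wide peak is shared with Gm21970, and it was not called without cadmium replicate 3 or control replicate 3 (edgeR adjusted p up to 0.085).

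Of the genes with a tested peak, 45.1% of the chromatin and transcription list had a wide peak. So had 33.3% of 6 nuclear RNA genes and 25% of 12 genes of the m6A machinery. The share was 13.5% for zinc finger genes, 15% for insulin and glucose genes and 10.5% for bile acid genes. These shares are a description, and that over all genes is not given here. The bile acid list of 20 genes had wide peaks in 2, Cyp8b1 (called higher) and Akr1d1 (-0.31, adjusted p = 0.392), the reductase that makes the bile acid ring system. Over all 131 peaks of that list 12 were called (9.16%, against 6.27% of all tested peaks). Among cholesterol and lipoprotein genes, neither wide peak of Apob was called. Among fat metabolism genes, Ppara, the fatty acid sensor, stood at -0.20 (adjusted p = 0.49) and was not called. Insulin and glucose genes had 4, in Irs1, Irs2 (0.42) and Ghr (0.08), the growth hormone receptor, and none was called. The clock list of 20 genes had 1, that of Per2, and the list of rhythmic output genes had 1, that of Tsku. Over all their peaks, 50 of 85 clock peaks (58.8%) and 40 of 48 rhythmic output peaks (83.3%) were called, against 6.27% of all tested peaks. Because these lists were chosen with earlier results known, the shares called are a description and give no independent support for an effect. Of the plasma protein list only F5, coagulation factor V, had a wide peak (-0.17, not called).

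Inflammation genes had 3 wide peaks: that of Ifi47 was called higher, that of Il6ra, the interleukin-6 receptor, lower, and Igtp, an interferon-induced GTPase, stood at 0.21 (adjusted p = 0.479). Over all 93 peaks of that list 22 were called (23.7%, against 6.27% of all tested peaks). That list too was chosen with earlier results of these data known. Il6ra had 163.6, 190.0 and 160.5 CPM in control and 109.6, 111.6 and 126.7 CPM in cadmium samples (log2 change -0.56, SE 0.14, adjusted p = 0.0407). Its groups did not overlap, but it was called in 0 of the 6 fits that left out a sample (adjusted p 0.0575 to 0.116). Lists of metal and antioxidant, stress, xenobiotic and mitochondrially encoded genes had 0 wide peaks. Of the nuclear RNA list, Malat1 (0.22) and a peak shared by Xist, its antisense partner Tsix and Gm26992 (0.43, adjusted p = 0.116) were wide and not called.

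Genes of the m6A machinery had 3 wide peaks: Rbm15, which recruits the methyltransferase complex (0.00, adjusted p = 0.999), and the cytoplasmic readers Ythdf3 (-0.35, adjusted p = 0.205) and Ythdf2 (-0.20, adjusted p = 0.505). The lists with the most wide peaks were chromatin and transcription regulators, with 28 wide peaks in 23 of the 51 genes that had a tested peak, and zinc finger genes, with 47 wide peaks in 46 of 341. The first had 0 called higher and 1 lower (Chd9), with a median log2 change of -0.06 beside -0.06 over all 535 peaks of the list, and Kmt2d at 0.37 and Bcl9l at -0.35 were the next largest. Zinc finger genes likewise had 0 called higher and 1 lower (Zfp970), with a median of 0.02 beside 0.05 over all 1056 peaks of the list. Over all peaks of these 2 lists, 13 of 535 (2.43%) and 25 of 1056 (2.37%) were called. The share was 6.27% over all tested peaks and 9.94% over wide peaks. Zfp809, a silencer of retroviral DNA, stood at -0.70 (adjusted p = 0.0829, and 0.0452 with the replicate block), Zfp654 at -0.64 (adjusted p = 0.161) and Zbtb18 at -0.61 (adjusted p = 0.102, and 0.0444 with the block). The highest value of the zinc finger list, at Zfp169 and named after it was seen, was 0.61 (adjusted p = 0.0737).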

How the data were processed

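The deposited table holds raw whole-number counts per peak for 6 samples, made by the authors; per the submitters' processing notes the build was mm10 and the tools, listed with no role, were MACS2 2.1.1, STAR 2.7.1a, DESeq2 4.1.0 (the number given there), cutadapt 1.1.8 and SAMtools 1.3.1. Whether peaks were called per sample or on pooled samples, whether counting used strand, and whether starts count from 0 are all not given in the sources used here. Columns were read as IP counts, an assumption. The authors' own fold changes were not used.

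Counts were tested with edgeR 4.0.16 (R 4.3.3): TMM, filterByExpr (minimum count 10, minimum total 15), the quasi-likelihood test of 3 against 3 samples and Benjamini-Hochberg adjustment over 37088 peaks. SE was taken as the log2 change over the root of the F statistic, without sign. limma 3.58.1 and DESeq2 1.42.0 gave alternatives. A peak with several symbols was given to its first protein-coding RefSeq gene. Scripts were tested on simulated data. Same-numbered samples, which the labels place in the same batch, deviated together (correlations 0.167, 0.243 and 0.208, against -0.199 to 0.019 for others). The deviations were taken from the group mean and cancel within a group. The values for other pairs are therefore tied to the first 3 and are no separate evidence. Named peaks are the 10 widest, the 10 with the highest level per kb, the 15 largest called rises and falls, list members with the largest changes and those beside the threshold. Members and lists were chosen with earlier results of these data known. Some items are not reported here.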

Additional observations from a re-analysis of the deposited data

How the results depend on the processing

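The 48 calls became 47 with DESeq2 size factors in edgeR, 48 without the low-count filter, 69 with the replicate block and 73 by DESeq2's Wald test, and 12 to 46 with a sample left out. With a width of at least 2000 bp 17 of 167 peaks were called, and among peaks with 1 gene symbol 36 of 386. All 48 kept their direction in every alternative fit run. The replicate block ended none of these calls and added Errfi1, Helz2 (adjusted p = 0.0414), Zfp809 and Zbtb18 among the named peaks. The within-gene count of wide peaks was 0 in all 13 alternatives run, leaving out each sample (0 to 0) and the replicate block (0) included, and a count of 0 says nothing about stability. The difference in the share of counts, -0.200 percentage points, ran from -0.786 to 0.631 with a sample left out. It reversed to 0.139 without cadmium replicate 3 and to 0.631 without control replicate 2. The median wide minus narrower log2 change stayed between -0.0785 and 0.0729. The median ratio of level per kb was 1.082 against narrower peaks at or above the median level, and 1.145 to 1.209 with a sample left out. The causes of these shifts were not tested. Narrower peaks of the same genes had a median level of 8.82 CPM and wide peaks 65.97 CPM, and the part of this in their calls was not tested.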
